A study of Mus musculus with 4 samples.

Results

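Among the cells released from mouse bone was a small set of monocyte-lineage cells that carried transcripts of Gpnmb, Inhba or Pdpn. A cell was a member when it had at least 4 unique molecular identifiers (UMIs, each 1 captured transcript) of the monocyte genes Csf1r, Ms4a6c and Ctss together and at least 3 UMIs of Inhba, Gpnmb and Pdpn together. Cells with 5 or more UMIs of C1qa, C1qb and C1qc (resident macrophages), 3 or more of Top2a, Mki67 and Cdk1 (dividing cells) or 10 or more of Col1a1, Col1a2 and Acan (skeletal stroma) were left out. The rule found 563 of the 31279 cells that passed the filters. The cells were thus chosen by measured UMI counts of these genes, and the levels of those genes below are descriptions without a test.

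The working label for these cells was Inhba and Gpnmb positive, and the data went against the Inhba in it. Gpnmb was detected in 505 of the 563 cells (89.7%), whereas Inhba was detected in 245 (43.5%) and Pdpn in 174 (30.9%). Only 199 cells (35.3%) held at least 1 UMI of both Inhba and Gpnmb. They are therefore called Gpnmb-group cells here, after their leading gene.

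The samples were cells from tibia and femur of wild-type C57BL/6J mice, with the marrow flushed out and the bone digested by enzymes before droplet single-cell RNA sequencing. The paper describes unloading of male or female mice and does not give the sex of those used for single cells. There were 2 control libraries (Ctrl) and 2 libraries from mice under hindlimb unloading (HLU), in which the tail is suspended for 28 days so that the hind limbs bear no weight. Each library came from 1 mouse, and no allele, transgene or drug separated the groups. The deposited files held 57925383 and 61296053 UMIs for Ctrl replicates 1 and 2, and 47819046 and 99849070 for HLU replicates 1 and 2.

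GPNMB is a heavily glycosylated membrane protein of macrophages, osteoclasts and pigment cells, and its gene is a classic target of MITF and related MiT-TFE transcription factors, which also drive lysosome genes. INHBA is the subunit from which activin A, a TGF-beta family ligand, is built. PDPN, or podoplanin, is a mucin-like membrane protein that binds CLEC-2 on platelets and links to the cytoskeleton through ezrin and moesin. In bone, monocytes are the source of macrophages and of osteoclasts, the cells that resorb mineral and that carry some of the same acid and protease machinery.

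Lysosome genes were among those higher in these cells than in other monocytes, and the promoters of 4 of them hold the CLEAR core, a run of letters that MiT-TFE factors are known to bind. The stretches below are from RefSeq promoters of build GRCm38.p6 (250 bases before to 50 after the gene's start), read 5′ to 3′ on the gene's strand. Capitals mark the core TCACGTG, searched on both strands, where it reads CACGTGA. The palindrome TCACGTGA holds it on both. The first 3 stretches are 99, 13 and 132 bases before the start, counted from the first capital, and the last 2 are 62 and 16 bases before it.
Ctsd, chr7:142387908-142387937, minus strand: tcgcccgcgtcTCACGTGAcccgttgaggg
Ctsa, chr2:164833749-164833778, plus strand: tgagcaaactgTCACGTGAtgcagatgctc
Atp6v1a, chr16:44139373-44139402, minus strand: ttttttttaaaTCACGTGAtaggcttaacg
Lamp1, chr8:13159088-13159116, plus strand: agggcaagataTCACGTGgtccagcgccc
Lamp1, chr8:13159134-13159162, plus strand: acgtgaccacaTCACGTGcggaacggagc
Ctsd had 1 further match, Ctsa 1 and Lamp1 2. The core occurred in a promoter of 1160 of all 27025 genes with a promoter entry (4.29%). Among the genes tested in the comparison with other monocytes it occurred in 554 of the 7039 with an entry (7.87%). It occurred in 62 of the 417 genes with an entry that were higher in Gpnmb-group cells (14.9%). A gene counted once, when any of its promoters held the motif. A promoter entry was found for 79.6% of the genes tested and for 22 of 30 genes of the lysosome list, which also holds the 4 MiT-TFE factor genes, too few for a comparison of shares, so these are counts only. Of the genes of that list with an entry, 4 of the 14 that rose and 1 of the 8 that did not pass held the core. The M-box TCATGTG, another motif of these factors, was searched on both strands too. It occurred in 1165 of all 27025 genes (4.31%), 178 of the 7039 (2.53%), 29 of the 417 (6.95%), 2 of the 14 (Ctsa and Grn) and 1 of the 8. The antioxidant response element, also searched on both strands, occurred in 932 (3.45%), 221 (3.14%), 23 (5.52%), 2 and 1 of these. A match is a run of letters, not a measured binding site.

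Gpnmb-group cells were not equally common in the 4 libraries. They were 48 of 7311 cells in Ctrl replicate 1, or 0.657% (exact binomial 95% interval 0.484 to 0.870), and 70 of 7495 in Ctrl replicate 2, or 0.934% (0.729 to 1.18). HLU replicate 1 had 70 of 7571, or 0.925% (0.721 to 1.17), and HLU replicate 2 had 375 of 8902, or 4.21% (3.8 to 4.65). Thus 1 HLU library held most of the cells, and the other HLU library lay inside the range of the controls. Averaged over mice, the share was 0.795% ± 0.196 for Ctrl against 2.57% ± 2.32 for HLU (SD over 2 libraries). The difference of 1.77 percentage points gave a two-sided exact permutation p of 0.667, in a design whose smallest possible p is 0.33. Without HLU replicate 2 the difference was 0.129 points, and without HLU replicate 1 it was 3.42 points. The intervals cover counting error only.

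Set against cells of the same lineage, the order of the libraries changed. Of the monocyte-lineage cells that met every other criterion, the Gpnmb-group cells were 24.1% and 25.1% in Ctrl (48 of 199 and 70 of 279), and 15.3% and 37.5% in HLU (70 of 457 and 375 of 1001). Both Ctrl libraries lay between the HLU libraries. HLU replicate 2 also had more monocytes of every kind, with 626 other monocytes against 151, 209 and 387 in the remaining libraries. After each cell was thinned to 3000 UMIs and shallower cells were left out, the shares were 0.219%, 0.328%, 0.383% and 1.24%, against 0.858%, 1.28%, 1.49% and 5.13% of the same cells before thinning, so HLU replicate 2 stayed highest at equal depth.

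**Figure D1:**
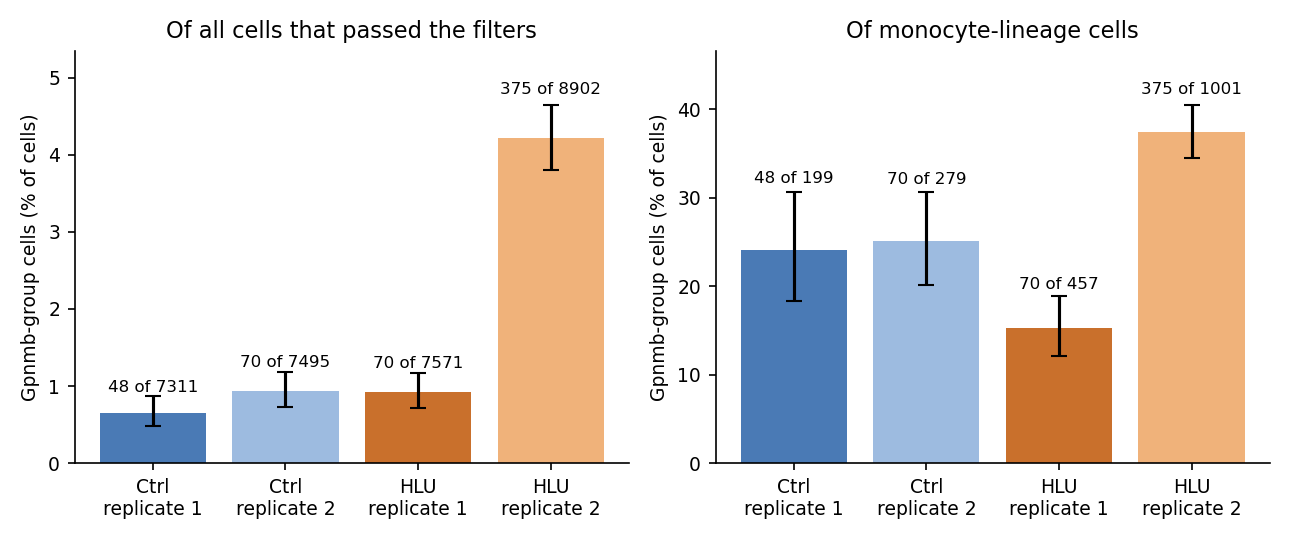
Share of Gpnmb-group cells in each library, in percent of all cells that passed the filters (left) and of monocyte-lineage cells that met the other criteria (right). Bars are the shares, lines the exact 95% binomial intervals, and HLU replicate 2 stands at 4.21% of all cells while the remaining libraries lie between 0.657% and 0.934%.

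Gpnmb, on chromosome 6 (GRCm38 chr6:49036546-49070929, plus strand), led the 3 rule genes in 412 of the 563 cells, Inhba in 93 and Pdpn in 43, with 15 ties. Its median was 5, 5.5, 5 and 5 UMIs per cell in Ctrl replicates 1 and 2 and HLU replicates 1 and 2. Summed over the cells, its raw level as counts per 1000000 UMIs (raw CPM) was 740, 1076, 957.5 and 635, against 13.7, 10.1, 13.8 and 22.3 in the other monocytes. In B cells, which should lack it, Gpnmb was detected in 3.03%, 4.55%, 1.19% and 0% of cells.

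Inhba (chr13:16011851-16031621, plus strand) and Pdpn (chr4:143267431-143299564, minus strand) varied far more. Inhba stood at 196, 82.7, 12.6 and 242.5 raw CPM in the Gpnmb-group cells and was detected in 15 of 48, 22 of 70, 8 of 70 and 200 of 375 cells. Pdpn stood at 89.2, 64.9, 18 and 111 raw CPM and was detected in 12, 18, 8 and 136 cells. Both genes were lowest in HLU replicate 1 and highest in HLU replicate 2, so the groups overlapped. As shares, Inhba was detected in 31.3%, 31.4%, 11.4% and 53.3% of Gpnmb-group cells and in 4.55%, 10%, 5.06% and 1.21% of B cells, measured the same way, and Pdpn in 1.52%, 4.55%, 0.298% and 0% of B cells. The B cells had fewer UMIs, with medians of 3232, 3814, 3724 and 2100 per cell. Just inside the threshold lay 91 cells with 3 UMIs of the 3 genes together and 69 with 4, while 122 other monocytes had 2, 232 had 1 and 1019 had none. At the upper end, 243 cells had 10 or more.

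**Figure D2:**
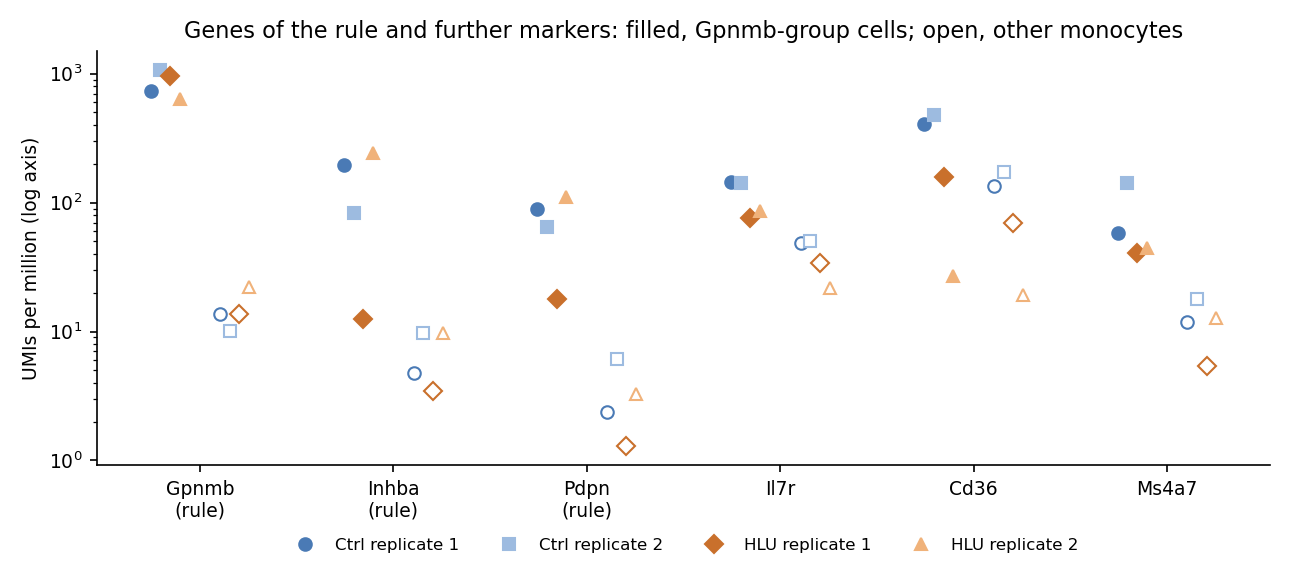
UMIs per 1000000 (raw CPM, log axis) of the rule genes Gpnmb, Inhba and Pdpn and of Il7r, Cd36 and Ms4a7, with 1 filled point a library for Gpnmb-group cells and 1 open point for other monocytes. Among Gpnmb-group cells, Gpnmb lies between 635 and 1076 in all libraries, while Inhba and Pdpn are lowest in HLU replicate 1 and highest in HLU replicate 2.

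The monocyte lineage was part of the rule, so its markers are no test of the label. Lyz2, the lysozyme of monocytes and neutrophils, stood at 10922, 14479, 14967 and 6672 raw CPM. Of the resident macrophage markers that the rule did not use, Mrc1 reached at most 3.1 and Vcam1 lay between 4.5 and 33.5. Adgre1, which encodes F4/80, stood at 192, 199.9, 156 and 376, against 118, 125, 173 and 405 in the other monocytes. Of the osteoclast markers, Calcr was at 0 in all 4 libraries, which leaves room for up to 3 UMIs in each. Ocstamp had 0, 18, 11 and 12 UMIs. Further osteoclast transcripts were present, with Acp5 at 92.1, 277, 518 and 154 raw CPM, Mmp9 at 2.93, 339, 172 and 66.4, and Atp6v0d2, a proton pump subunit, at 10.2, 28.3, 65.7 and 5.31.

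Most Ctsk UMIs lay in a minority of the cells. In 57 cells (10.1%) Ctsk, which encodes the collagen-degrading cathepsin K, and Acp5, which encodes tartrate-resistant acid phosphatase, reached 5 UMIs together, and these were 7, 8, 5 and 37 cells of the 4 libraries. They held 148 of 159, 497 of 518, 585 of 601 and 510 of 559 Ctsk UMIs of the Gpnmb-group cells. A single cell of each library held 122, 307, 341 and 308 of these UMIs.

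Transcripts of other cell types were present and are given as summed levels in raw CPM, in the order Ctrl replicates 1 and 2 and HLU replicates 1 and 2. The 17 neutrophil transcripts, led by S100a8 and S100a9, summed to 4098, 5066, 14368 and 17092, and 65 cells held 100 or more UMIs of S100a8 and S100a9. The 27 mesenchymal and cartilage transcripts summed to 5660, 2567, 258 and 834. Both lists separated Ctrl from HLU, and in opposite directions. The mesenchymal UMIs other than Spp1 sat mostly in few cells: 6, 10, 1 and 9 cells with at least 30 of them held 83.1%, 56.8%, 75.0% and 97.2% of the total. Per cell the median was 14.5, 13.5, 0 and 0 of these UMIs, and 12, 15, 0 and 0 in the other monocytes. Over all 27 genes, Dcn led in Ctrl replicate 1 and Spp1 in the remaining libraries.

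The 13 dendritic transcripts summed to 168, 219, 139 and 231 raw CPM, led by Bst2, against 566, 624, 527 and 356 in the other monocytes. The 9 B cell transcripts summed to 57.0, 212, 121 and 26.8, against 341, 755, 7145 and 2682 in the other monocytes, where Igkc led. T and NK transcripts reached at most 9, with 5 to 9 of 10 genes at 0, basophil and mast cell transcripts at most 2.70, with 5 to 7 of 7 genes at 0, endothelial transcripts 25.5 and erythroid transcripts 73.9. Of the 8 megakaryocyte and platelet transcripts, Pf4 made up most of a sum of 772, 940.0, 317 and 155. Next came Ppbp, a chemokine of platelets, at 30.7, 159, 89.1 and 2.86, against 0, 12.6, 11 and 1.33 in the other monocytes. Putative doublets were 22.9%, 5.71%, 5.71% and 10.1% of the Gpnmb-group cells, against 6.39% to 7.64% of all cells, so Ctrl replicate 1 stood apart. The shares over all cells were set by an assumed doublet rate, not measured. A single barcode of these cells was shared between libraries (HLU replicates 1 and 2).

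The first comparison asked which other transcripts accompanied the 3 rule genes in the same cells. It set the Gpnmb-group cells of each library against the 1373 other monocytes, which met every criterion except the 3 UMIs of Inhba, Gpnmb and Pdpn, with UMIs summed per library and class and the library as a block. Of 8843 genes tested, 969 passed an adjusted p of 0.05 in edgeR's quasi-likelihood test (11%), 519 higher (5.87%) and 450 lower (5.09%), and the median log2 fold change of all genes was 0.00. Levels below are CPM after TMM scaling, in the order Ctrl replicates 1 and 2 and HLU replicates 1 and 2. The test compares levels of a transcript within libraries and does not say whether more cells or more RNA per cell carried it.

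Of the list of lysosome and MiT-TFE factor genes, 21 of the 30 tested rose and none fell, with a median log2 fold change of 0.63. Cd63, a tetraspanin of lysosomes and late endosomes, had 764, 693, 561 and 299 CPM in Gpnmb-group cells against 177, 241, 178 and 163 in the other monocytes (log2 fold change 1.53, SE 0.17, adjusted p = 0.000415, edgeR). Psap, the precursor of the saposins that help break down sphingolipids, had 3387, 3502, 4063 and 1962 CPM against 1284, 1305, 1730 and 637 (1.42, SE 0.09, adjusted p = 2.05e-05). For both genes every library of Gpnmb-group cells lay above every library of the other monocytes. The cathepsin proteases Ctsb and Ctsd rose by 1.34 and 1.33 on the log2 scale, and Lipa, the acid lipase that frees cholesterol from its esters, by 1.31.

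The genes whose promoter stretches are printed above were among those that rose. Ctsd had 2110, 2202, 2347 and 1666 CPM against 808, 702, 879 and 897, and Ctsa, a protective carboxypeptidase, 311, 338, 293 and 235 against 138, 154, 146 and 130. Atp6v1a, a subunit of the proton pump that acidifies the organelle, had 311, 300.4, 277 and 328 CPM against 149.6, 155, 127 and 221. None of these levels overlapped between the classes. Lamp1, an abundant protein of the lysosome membrane, had the smallest rise of these genes, 0.57 on the log2 scale (SE 0.09, adjusted p = 0.00297, edgeR). The MiT-TFE factor genes themselves did not pass the test: Mitf had a log2 fold change of 0.60 (adjusted p = 0.0606), Tfeb 0.25, Tfec 0.34 and Tfe3 0.11. Of the same list, 18 of 29 genes rose without HLU replicate 2, 21 of 28 with each gene's highest cell removed, and 13 of 28 without cells that held dendritic, B or T cell transcripts.

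Genes of lipid handling were also higher, with 14 of 22 up, 1 down and a median log2 fold change of 0.95. Trem2, a receptor for lipids and lipoproteins, had 68.6, 87.0, 104 and 6.48 CPM in Gpnmb-group cells against 25.1, 16.2, 14.7 and 5.26 (1.92, SE 0.33, adjusted p = 0.00466, edgeR). Fabp5, a fatty acid carrier, had 374, 986, 376 and 348 CPM against 141, 274, 200.1 and 188 (1.26). Plin2, which coats lipid droplets, had 2960, 2339, 2127 and 841 CPM against 1228, 1001, 1067 and 576 (1.01). All 3 were higher in 4 of 4 libraries, although Trem2 differed little in HLU replicate 2. Scd2, a fatty acid desaturase, was the gene that fell, by 0.85. Lpl, which splits triglycerides outside the cell, rose by 1.54 (adjusted p = 0.0139) but missed the test without Ctrl replicate 1 (1.26) or without HLU replicate 1 (1.24). Without the cells of either class that held 5 or more dendritic, B or T cell UMIs, which left 445 of the 563 Gpnmb-group cells and 949 of the 1373 other monocytes, 5 of 17 rose, and the count over all genes was 487 in place of 969. The cause of that drop was not tested.

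Gdf15, Hmox1 and Sqstm1, which is counted in the lysosome list, were also higher, as single genes. Gdf15, a secreted stress-response cytokine, had 610.0, 483, 519.6 and 62.8 CPM against 116, 64.7, 56.4 and 9.18 (2.82, SE 0.14, adjusted p = 8.08e-06, edgeR). Hmox1, which degrades haem, had 7495, 6250, 5736 and 2652 CPM against 3185, 2414, 2522 and 847 (1.36, SE 0.09). Sqstm1, an autophagy receptor that also frees the antioxidant factor NRF2 from its inhibitor, had 1336, 853, 864 and 420.0 CPM against 477, 327, 408 and 173 (1.31). All 3 were lowest in HLU replicate 2 in both classes, and within each library the Gpnmb-group cells were the higher class. Akr1b8, an aldo-keto reductase, rose by 2.13 and Gclm, the regulatory subunit of the first enzyme of glutathione synthesis, by 1.13.

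Of the glutamine list, 5 of 18 genes rose, 1 fell and 12 did not pass (median 0.21). Slc7a11, the cystine and glutamate exchanger, had 1122, 1061, 1278 and 1608 CPM against 782, 540, 915 and 813 (0.74, SE 0.11, adjusted p = 0.00286, edgeR). Its partner chain Slc3a2 rose by 0.85, Glul, which makes glutamine from glutamate, by 0.81, and Gclc, the catalytic subunit paired with Gclm, by 0.84. Slc7a5, the large neutral amino acid transporter, fell by 1.06. The glutamine transporter Slc1a5 did not pass the test (0.23, adjusted p = 0.471).

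The resident macrophage list, which the C1q genes are not part of here, had 6 of 10 genes higher and none lower (median 1.10). Cd68, a lysosomal glycoprotein of macrophages, had 489, 561, 427 and 235 CPM against 139.5, 183, 148 and 108 (1.51, SE 0.13, adjusted p = 8.09e-05, edgeR). Ms4a7, a membrane protein of mature macrophages, had 61.0, 141, 40.3 and 47.1 CPM against 12.6, 17.4, 5.10 and 12.9 (2.46, SE 0.21). Spic, the transcription factor of iron-recycling macrophages, had 42.7, 54.9, 91.4 and 138 CPM against 9.43, 20.1, 22.1 and 93.7 (1.35). Each was higher within every library, Spic least so in HLU replicate 2. The C1q macrophages themselves were 3, 6, 0 and 15 cells, too few for a test.

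Il7r, Cd36 and Ms4a7, the markers given for these cells beside the rule, all rose. Il7r, the interleukin-7 receptor, had 149, 141, 75.3 and 91.7 CPM against 51.5, 48.5, 32.5 and 22.0 (1.61, SE 0.15, adjusted p = 0.000137, edgeR). It was detected in 56.3%, 57.1%, 40.0% and 43.7% of Gpnmb-group cells and in 22.5%, 23.0%, 17.6% and 14.1% of other monocytes. In B cells Il7r was detected in 39.4%, 16.4%, 27.7% and 1.21% of cells. Cd36, a scavenger receptor for oxidised lipoproteins, had 425, 471, 156 and 28.3 CPM against 142, 167, 66.6 and 19.3 (1.24, SE 0.16). Both lay above the other monocytes in each library, and Cd36 fell to a low level in both classes of HLU replicate 2. Of the 11 genes of IL-7 receptor signalling tested, Il7r alone passed. Il2rg, the chain that pairs with it, had a log2 fold change of -0.29 without passing.

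**Figure D3:**
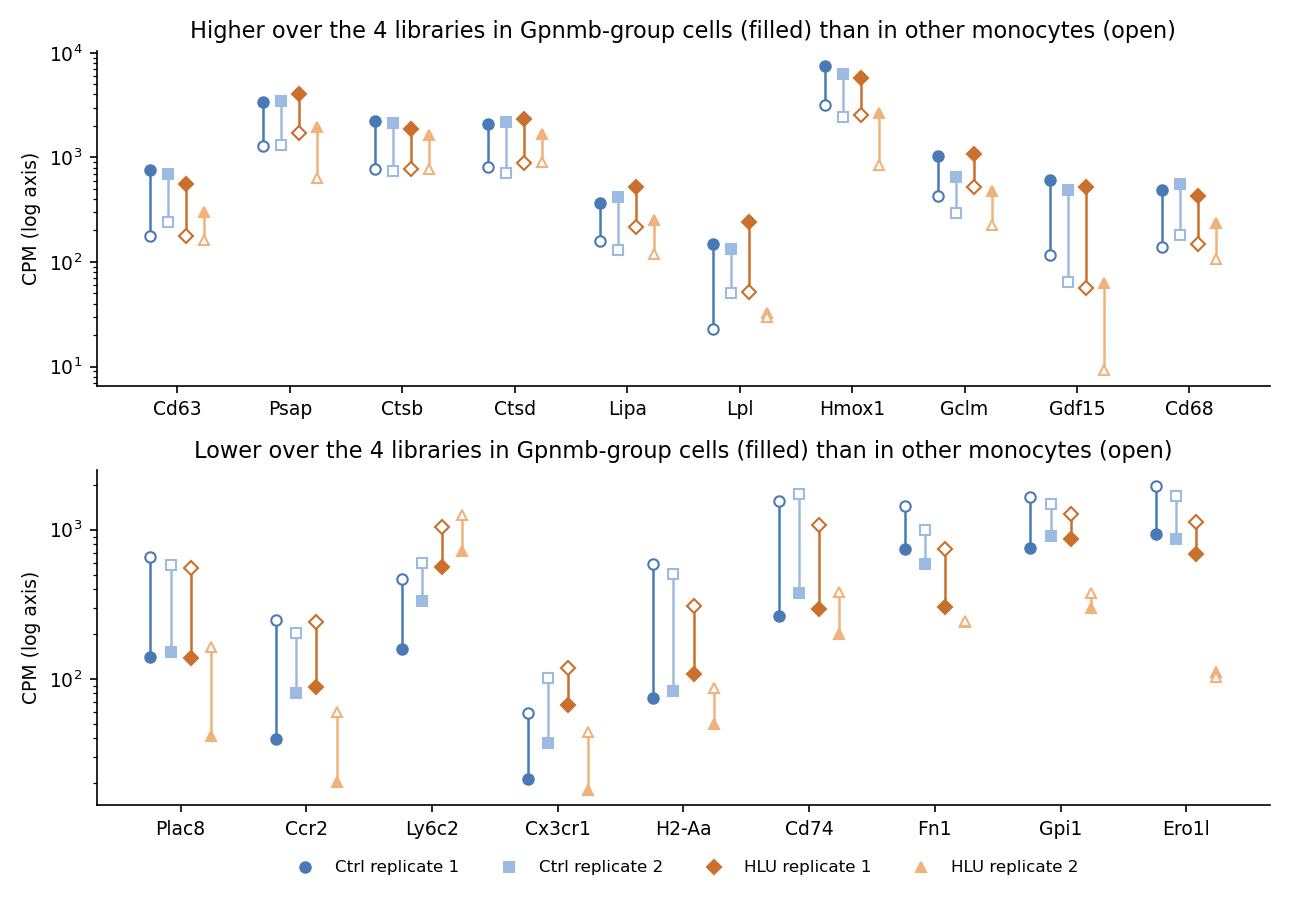
CPM (log axis) of named genes in Gpnmb-group cells (filled) and other monocytes (open), with a line joining the classes of each library, for genes higher (top) and lower (bottom) over the 4 libraries. In HLU replicate 2, Lpl and Fn1 were nearly equal between the classes and Ero1l was slightly higher in the Gpnmb-group cells.

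The inflammatory list moved in part, with 8 of 27 genes up and 1 down (median 0.47). Il1rn, the interleukin-1 receptor antagonist, had 191, 161, 39.4 and 426 CPM against 37.7, 49.7, 19.4 and 125 (1.73, SE 0.17, adjusted p = 0.000212, edgeR). Cxcl1, a neutrophil-attracting chemokine, had 1618, 2009, 206 and 1161 CPM against 369.5, 453, 191 and 194 (1.80, SE 0.33, adjusted p = 0.00646). Il1b had 1511, 1288, 638 and 7193 CPM against 2036, 1454, 1015 and 3730 and did not pass (-0.08, adjusted p = 0.889). Il1rn was thus higher within every library, Cxcl1 barely so in HLU replicate 1, and Il1b was higher in 1 library and lower in 3. Csf3, which encodes the granulocyte growth factor G-CSF, had 114, 122, 2.69 and 697 CPM against 10.1, 17.0, 5.10 and 314 (1.90, SE 0.40, adjusted p = 0.0142), and missed the test without Ctrl replicate 1 (1.51) or Ctrl replicate 2 (1.54). It was higher in 3 of 4 libraries. Without HLU replicate 2 the list had 6 genes up and 4 down of 26.

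Genes of classical monocytes were lower, 10 of 17 with none higher (median -0.55). Plac8, abundant in circulating monocytes, had 140.3, 152, 137 and 41.4 CPM against 655, 578, 554 and 163 (-2.03, SE 0.11, adjusted p = 8.08e-06, edgeR). Ccr2, the receptor with which monocytes leave marrow, had 39.6, 80.8, 88.7 and 20.3 CPM against 248, 203, 239 and 59.5 (-1.66, SE 0.18). Ly6c2, the classical monocyte surface marker, had 159, 330.4, 560.0 and 716 CPM against 470.1, 594, 1051 and 1247 (-1.01, SE 0.13). All were lower in 4 of 4 libraries. The 10 non-classical genes split into 3 higher and 3 lower, with Cx3cr1, the fractalkine receptor, down by 1.21.

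All 7 MHC class II genes were lower (median -1.89). Cd74, the invariant chain, had 264, 374, 293 and 199 CPM against 1562, 1730, 1082 and 383 (-1.89, SE 0.22, adjusted p = 0.000501, edgeR). Dendritic transcripts fell in 6 of 7 genes tested, B cell transcripts in 4 of 5, with Igkc at 9.15, 34.2, 42.1 and 13.6 CPM against 168, 291, 3857 and 1886. Without the cells of either class that held 5 or more dendritic, B or T cell UMIs, none of the 6 MHC class II genes tested passed (median -1.41), in a fit with 487 calls over all genes. The part of such cells in the result was not tested. Of the remaining lists of other cells, neutrophil transcripts fell in 5 of 16, the endothelial gene Pecam1 (-1.53) and the NK gene Nkg7 (-1.76) fell, 1 of 18 mesenchymal transcripts rose, and none of 3 erythroid transcripts passed. Of the megakaryocyte list 2 of 2 genes tested rose (median 2.81), and both rose against inflammatory monocytes too. Pf4, a platelet chemokine, had 770.1, 764, 218 and 152 CPM against 207, 131, 41.0 and 23.0 (2.39, SE 0.14). Ppbp rose by 3.24 (SE 0.36, adjusted p = 0.000415, edgeR), with 71.4% to 90.5% of its UMIs in 1 Gpnmb-group cell of each library, and by 1.40 with each gene's highest cell removed. It missed the test with at least 5 UMIs of the rule genes (1.71) or without cells that held dendritic, B or T cell transcripts (2.55). In the Gpnmb-group cells 5, 4, 3 and 1 of the 8 genes of that list were at 0. The part of platelet RNA in these values was not tested.

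The matrix list was mixed, with 6 of 22 genes higher and 3 lower. Among the higher was Mmp12, an elastin-degrading protease, with 102, 361, 114 and 56.1 CPM against 31.4, 24.1, 20.2 and 9.67 (2.72, SE 0.27, adjusted p = 0.000223, edgeR). Mmp14, a membrane-bound collagenase, had 54.9, 96.3, 71.7 and 549 CPM against 23.3, 38.7, 26.1 and 346 (1.11). Both were higher within each library, and HLU replicate 2 stood far above the rest for Mmp14 in both classes. Of the 14 osteoclast genes 3 rose, namely Atp6v0d2, Clcn7 and Tcirg1, which all serve acid secretion, and Itgb3 fell. Without the cells of high Ctsk and Acp5 of either class, which left 506 Gpnmb-group cells and 1342 other monocytes, 4 of 13 rose and none fell. Osteoclast genes themselves chose the cells removed, so that count is a description only. Ctsk had 242, 537, 538 and 121 CPM against 34.6, 575, 3.68 and 0.612 and did not pass (adjusted p = 0.0534).

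Of the hypoxia-inducible factor targets 5 of 17 fell (median -0.42), and of the glycolysis genes 3 of 16 (median -0.32), with none higher in either list. Gpi1, the second enzyme of glycolysis, fell by 0.68 (SE 0.13, adjusted p = 0.00736, edgeR). Ero1l, an oxidase of the endoplasmic reticulum, had 933, 865, 685 and 112 CPM against 1976, 1681, 1135 and 103 (-0.67, SE 0.17, adjusted p = 0.0320). It was lower in 3 of 4 libraries, and HLU replicate 2 had far less of it in both classes. Without HLU replicate 2, 11 of 17 and 10 of 16 genes fell. Ero1l missed the test without any 1 of the remaining libraries (-0.55 to -0.66).

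None of the 15 activin and TGF-beta genes beside Inhba passed (median 0.10), Tgfb1 standing at 188, 212, 194 and 233 CPM against 157, 167, 177 and 194 (adjusted p = 0.162). Of the podoplanin partners 2 of 6 rose, Ezr, which encodes ezrin, by 0.55 and Lgals8, a galectin, by 0.54, and Msn, which encodes moesin, did not pass (0.18). Of 21 intrinsic apoptosis genes 1 rose and 4 fell. Bcl2l1, which encodes the survival protein BCL-XL, rose by 0.85 (adjusted p = 0.0437) but missed the test in DESeq2 (0.92) and without Ctrl replicate 1 (0.68), Ctrl replicate 2 (0.83) or HLU replicate 1 (0.79), and Bax, which promotes cell death, did not pass (0.25). The 4 that fell, Bcl2a1d (-0.82), Birc2 (-0.77), Bcl2a1b (-0.74) and Birc3 (-0.47), are known as survival genes, and reads of the near-identical Bcl2a1 copies may have been split between them. Each of the 4 missed the test without Ctrl replicate 2 (-0.43 to -0.73) or without HLU replicate 1 (-0.44 to -0.76), and all but Birc2 without Ctrl replicate 1. Without cells that held dendritic, B or T cell transcripts, Bcl2a1d (0.24) and Bcl2a1b (0.21) turned positive and Birc2 was at -0.20, none passing. Immediate early and dissociation genes split into 4 higher and 3 lower of 23, interferon-stimulated genes into 1 and 1 of 10, and alternative activation genes into 1 and 1 of 12. No basophil or mast cell gene was abundant enough to be tested.

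The second comparison set the Gpnmb-group cells against inflammatory monocytes, the 629 other monocytes with at least 3 UMIs of Serpinb2, Ptgs2 and Il1a together (69, 93, 115 and 352 cells). The Gpnmb-group cells were not chosen on these genes and held them too. In raw CPM and the same order, Serpinb2 stood at 253, 592, 63.0 and 1581 in Gpnmb-group cells against 639, 508, 216 and 941. Ptgs2 stood at 519, 547, 184 and 819 against 1354, 1639, 888 and 377, and Il1a at 71.7, 83.7, 9.90 and 485 against 59.1, 54.6, 21.6 and 224. Of 7201 genes tested, 332 passed (4.61%), 168 higher (2.33%) and 164 lower (2.28%). Of the lysosome and MiT-TFE factor list 12 of 28 were higher with none lower (median 0.47), and MHC class II genes did not pass in any of 6. Lipid handling had 8 genes up and 1 down of 19, the resident macrophage list 5 up of 10, the classical monocyte list 8 down of 17, and the inflammatory list 3 up and 3 down of 24. Both comparisons share the Gpnmb-group cells, and most of these comparison cells lay in HLU replicate 2.

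Of 12 osteoclast genes 4 rose against these cells and none fell. Ctsk had 239, 531, 531 and 114 CPM against 4.34, 12.2, 3.55 and 0.628 (6.38, SE 0.28, adjusted p = 2.49e-06, edgeR). Nceh1, a cholesteryl ester hydrolase, had 61.7, 70.8, 57.5 and 64.3 CPM against 17.4, 11.2, 9.94 and 23.0 (1.98, SE 0.23, adjusted p = 0.00181). Gstm1, a glutathione transferase, had 1115, 563, 1117 and 219 CPM against 151, 82.2, 295 and 124 (2.06, SE 0.29). All 3 were higher within every library, and the classes did not overlap for Ctsk and Nceh1. Nearly all Ctsk UMIs of the Gpnmb-group cells lay in the 57 cells described above.

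Genes of the hypoxia-inducible factor list (10 of 16, median -0.97) and of glycolysis (10 of 16, median -0.65) were lower, with none higher. Ero1l had 921, 856, 676 and 106 CPM against 3291, 3076, 2357 and 117 (-1.43, SE 0.25, adjusted p = 0.0121, edgeR), and missed the test without Ctrl replicate 1 (-1.29), Ctrl replicate 2 (-1.28) or HLU replicate 1 (-1.29). Vcan, a proteoglycan of inflammatory monocytes, had 340.1, 269, 434 and 654 CPM against 1299, 875, 1293 and 1001 (-1.45, SE 0.19, adjusted p = 0.00332). Ero1l was lower mainly in 3 libraries, with HLU replicate 2 near equal, and Vcan in all 4. Selenbp1, a methanethiol oxidase, fell by 2.21. Il7r (1.57) and Ms4a7 (2.25) rose here too, whereas Cd36 did not pass (0.48, adjusted p = 0.119). The count of called genes was 65 without Ctrl replicate 1, 74 without Ctrl replicate 2, 111 without HLU replicate 1 and 1106 without HLU replicate 2.

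**Figure D4:**
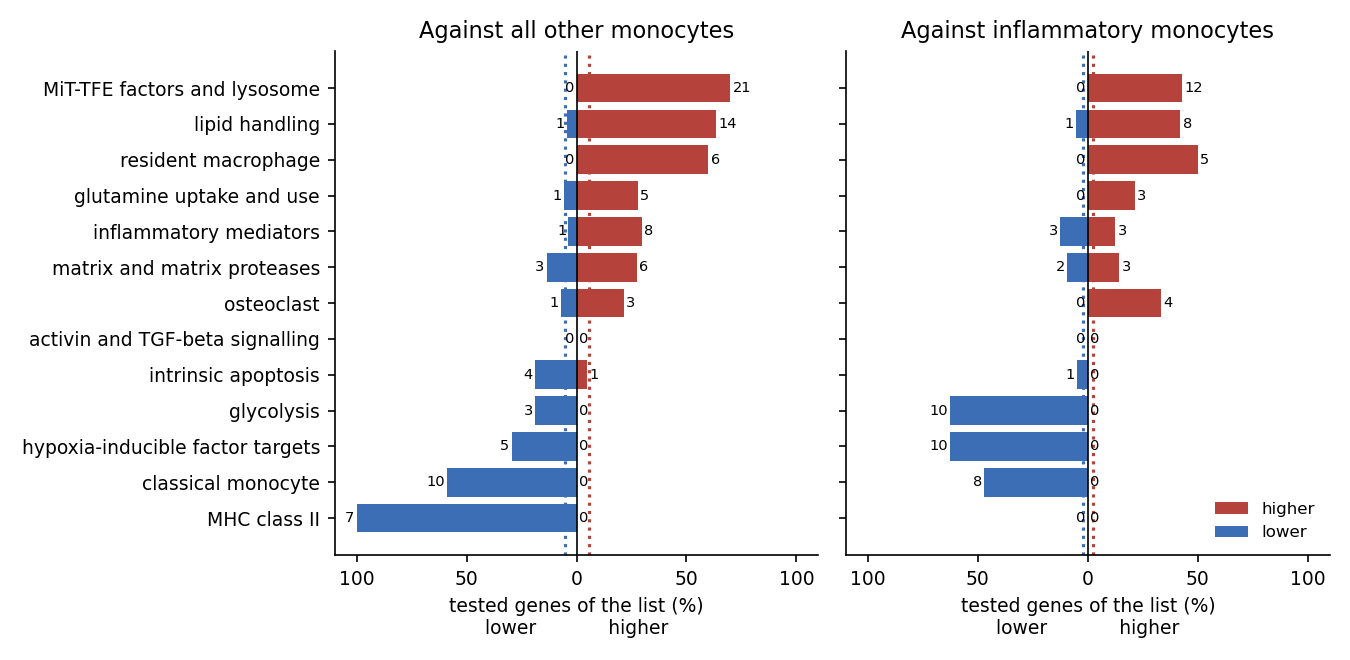
Percent of the tested genes of each list that were higher (red, to the right) or lower (blue, to the left) in Gpnmb-group cells than in all other monocytes (left panel) and in inflammatory monocytes (right panel), with the number of genes at each bar and dotted lines at the shares over all genes. The lysosome and MiT-TFE factor list has the counts 21 and 12 on the higher side, and MHC class II genes have 7 lower genes in the left panel and none in the right.

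Within the Gpnmb-group cells, those in which Gpnmb led and those in which Inhba or Pdpn led differed in other transcripts, given as a description because the rule genes define the split. Cxcl1 stood at 918, 696, 208 and 759 raw CPM where Gpnmb led (38, 49, 65 and 260 cells) and at 4169, 6642, 211 and 1984 where Inhba or Pdpn led (10, 19, 4 and 105 cells, where a tie between Inhba and Pdpn above Gpnmb counts in). Lyz2 stood at 12386, 16895, 15333 and 6940 where Gpnmb led and at 4882, 6333, 7238 and 5802 otherwise. Cxcl1 was the lower where Gpnmb led in 3 of 4 libraries and nearly equal in HLU replicate 1, and Lyz2 was the higher in all 4. S100a8, a gene of neutrophils and monocytes, stood at 411, 535, 3911 and 4543 raw CPM where Gpnmb led and at 3517, 3703, 22301 and 8600 otherwise, lower where Gpnmb led in all 4 libraries. Its part in the other differences was not tested.

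The third comparison asked how HLU differed from Ctrl in these cells, over 2 libraries a group. No gene of 7453 tested passed in edgeR's quasi-likelihood test (0%), where 323 had an unadjusted p under 0.05 and the smallest adjusted p was 0.197. DESeq2 called 52, 4 higher and 48 lower in HLU. Without HLU replicate 1 edgeR called 1130 genes, 541 higher and 589 lower, and without HLU replicate 2 it called 179, 27 higher and 152 lower, so the count was larger with either HLU library alone than with both. Both HLU libraries lay beyond both Ctrl libraries for 33.2% of genes, 16.6% higher and 16.6% lower, and list counts below are read against that. Fewer cells of a kind and less RNA per cell cannot be told apart in such sums.

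No gene of any list passed, so the counts that follow are of genes lower in both HLU libraries than in both Ctrl libraries. Of the hypoxia-inducible factor targets there were 14 of 17 (median log2 fold change -1.02), of the resident macrophage genes 7 of 10, of glycolysis 8 of 16 and of lipid handling 7 of 21. Il7r had 149 and 141 CPM in Ctrl against 75.4 and 90.3 in HLU (-0.80, SE 0.28, adjusted p = 0.977, edgeR), and Cd36 had 424 and 473 against 156 and 27.8 (-2.32, SE 0.75). Pf4 had 768 and 767 CPM against 218 and 149 (-2.07, SE 0.34, adjusted p = 0.218, edgeR). The groups did not overlap for these 3 genes, with 2 libraries a side. The same held for Ms4a7, so all 3 markers given beside the rule were lower in both HLU libraries without passing (median -1.23). Pf4 passed in DESeq2 (-2.07, adjusted p = 0.000277), and in edgeR without HLU replicate 1 (-2.35) or HLU replicate 2 (-1.81) or with no filter on low counts (-2.00). Cd36 passed in the same edgeR settings (-4.00, -1.52 and -2.28) but not in DESeq2. Neither Pf4 nor Cd36 passed in any other setting. These included putative doublets removed (-2.43 for Pf4 and -2.34 for Cd36) and either Ctrl library left out. For Ero1l, with 931 and 868 CPM in Ctrl, HLU replicate 1 (686) lay nearer to Ctrl than to HLU replicate 2 (110.1), and it passed without HLU replicate 1 (-3.02).

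Genes with the opposite order included the neutrophil list, 9 of 14 higher in both HLU libraries (median 1.90). S100a8, which encodes a calcium-binding protein of neutrophils and monocytes, had 1057 and 1181 CPM in Ctrl and 4585 and 6163 in HLU (2.26, SE 0.42, adjusted p = 0.308, edgeR). It passed in DESeq2 (2.26, adjusted p = 1.68e-05), and in edgeR without HLU replicate 1 (2.47) or HLU replicate 2 (2.03) or with no filter (2.35). Of the 65 cells of high S100a8 and S100a9, 1 and 4 lay in Ctrl and 9 and 51 in HLU, and the median cell had 9, 16, 22 and 16 UMIs of both genes. Without such cells edgeR called 3 genes, all lower in HLU. The level of S100a8 itself is not given for that setting, since its UMIs chose the cells. Chil3, a chitinase-like protein, had 132 and 43.7 CPM in Ctrl and 167 and 2137 in HLU (3.73, adjusted p = 0.977, edgeR). It passed in edgeR with no filter (3.85) and without HLU replicate 1 (4.66), but not without HLU replicate 2 (0.97). Of the mesenchymal and cartilage transcripts 15 of 15 lay lower in HLU (median -3.87). Dcn, which encodes decorin, had 2506 and 467 CPM against 2.69 and 239 (-3.59, adjusted p = 0.977, edgeR). It passed in edgeR with no filter (-3.45), and without HLU replicate 1 (-2.62) or HLU replicate 2 (-9.03). It also passed without cells rich in mesenchymal UMIs (-7.39), a setting in which its own UMIs helped to choose the cells. Spp1 aside, the median cell of either class had none of these UMIs in HLU, as given above. Their part in the other differences was not tested. S100a8, Chil3 and Dcn passed in no setting beyond those named. The settings without a pass included putative doublets removed (1.91, 4.63 and -2.29) and either Ctrl library left out.

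Of 16 glutamine genes 2 lay higher and 3 lower in both HLU libraries, and of 21 apoptosis genes 4 and 5, beside the 16.6% of all genes on each side. Slc7a11 had 1119 and 1065 CPM in Ctrl and 1280 and 1583 in HLU (0.39), and Bax 436 and 451 against 485 and 625 (0.32), without passing. Mcl1, which opposes apoptosis, had 809 and 941 CPM in Ctrl and 747 and 398.5 in HLU (-0.61), and passed without HLU replicate 1 (-1.12, adjusted p = 0.00431, edgeR). Of the 17 classical monocyte genes 6 lay higher and 1 lower, and of 23 immediate early genes 9 lay lower.

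**Figure D5:**
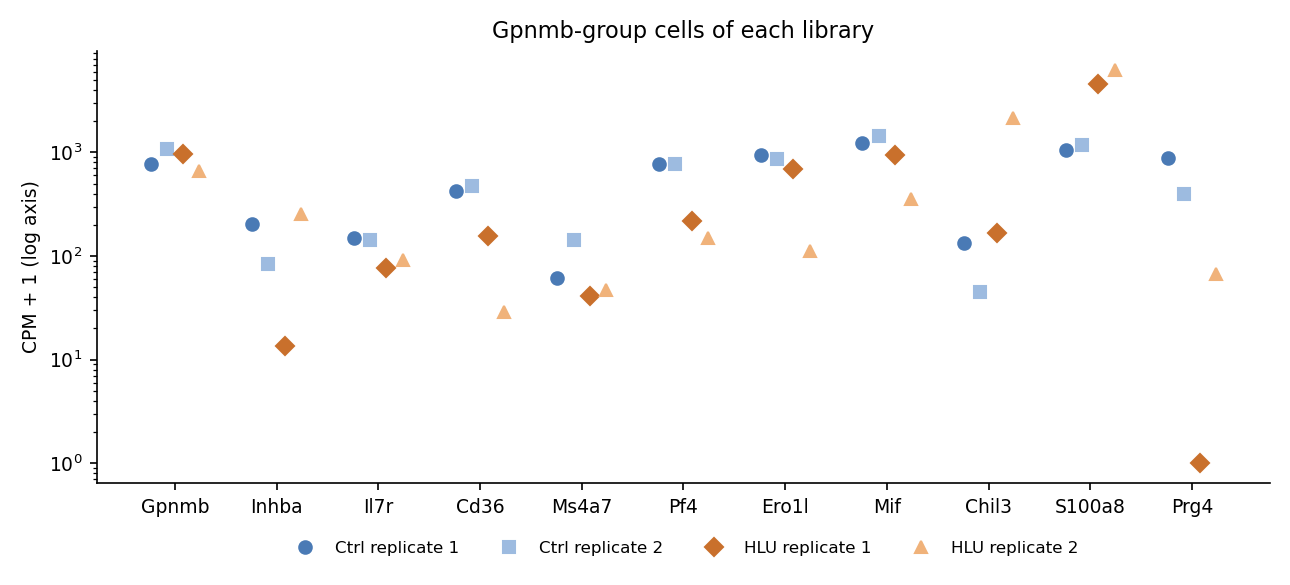
CPM + 1 (log axis) of 11 genes in the Gpnmb-group cells of the 2 Ctrl and 2 HLU libraries, 1 point a library. No gene passed the test between groups, and HLU replicates 1 and 2 lie apart for Inhba, Cd36, Ero1l, Chil3 and Prg4, a lubricin gene of joint tissue.

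Whether the HLU effect differed between Gpnmb-group cells and the other monocytes of the same libraries was tested as an interaction. Of 9599 genes 24 passed (0.25%), 19 with a more positive HLU effect in Gpnmb-group cells (0.198%) and 5 with a more negative one (0.0521%). Among them were the cartilage and mesenchymal transcripts Cytl1, Chad, Sparc and Cilp and the immunoglobulin transcripts Ighm and Igkc, whose levels in the other monocytes differed between libraries. Ctsk was one, at 241, 535, 539 and 121 CPM in Gpnmb-group cells against 34.3, 568, 3.65 and 0.616 in the other monocytes (difference of log2 fold changes 6.20, SE 0.75, adjusted p = 0.00181, edgeR). Ctsk was thus high in both classes only in Ctrl replicate 2. With each gene's highest cell removed 13 genes passed, of which 10 were among the 24. With putative doublets removed, Ctsk (5.80, adjusted p = 0.164), Cytl1, Chad, Sparc, Ighm and Igkc did not pass.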

How the data were processed

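The deposited files held raw UMI counts of 31053 genes for 10000 to 10003 barcodes per library, which the authors made with Cell Ranger 6.0.0 on the mm10 genome. The Seurat clusters of the study were not used here, and no cell annotation was read. Cells kept here had 1000 to 40000 UMIs, at least 200 genes, at most 10% mitochondrial and at most 0.2% haemoglobin UMIs. Doublets were scored with scanpy 1.11.5, and the highest scores were marked at an assumed rate of 0.8% per 1000 cells. They were kept, with their removal as an alternative. The members and the 29 gene lists were chosen with earlier results of these data known, so no list is independent evidence.

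Counts were summed per library and class, because cells are not replicates, and tested in edgeR 4.0.16 (TMM scaling, filterByExpr, quasi-likelihood test, Benjamini-Hochberg adjustment over all genes tested), with the library as a block for comparisons within libraries. DESeq2 1.42.0, no filter on low counts, other cell and library choices and single-cell maxima were alternatives. Adjusted p values in the report are from edgeR unless DESeq2 is named. Genes of the rule were in the fit but received no test. The 2 libraries a group came from separate mice, and p-values for HLU against Ctrl are set against the spread between them. In the comparisons within libraries the block takes out that spread. Those p-values are set against how far the class difference varied over the 4 libraries, and for the interaction within each group.

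On simulated counts with 200 genes changed by a log2 fold of 2, the tests recovered 200 of them for the comparison with other monocytes (8906 genes), 140 for HLU against Ctrl (7355 genes), 193 for the interaction and 199 for the comparison with inflammatory monocytes. The simulation gave each gene the same mean share in every library and class and used 1 dispersion for all genes. Changed genes were drawn from the more abundant ones. Recovery with the differences between the real libraries was not tested. Named genes were those with the largest called changes in 1 direction in all libraries, the largest called changes per list without that condition, both at 50 CPM or more, and the most abundant genes of lists with no call. Ctsa, Atp6v1a, Lamp1, the MiT-TFE factors, Fabp5, Plin2, Scd2, Sqstm1, Slc7a11, Slc7a5, Slc1a5, Spic, Il2rg, Il1rn, Il1b, Atp6v0d2, Itgb3, Lgals8, Msn, Bcl2l1 and Bax, and Ctsk against other monocytes, were named outside that rule after their values were seen, as were Sparc and Cilp.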

Additional observations from a re-analysis of the deposited data

Results flagged for a closer look

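For 13 named genes the HLU effect differed between Gpnmb-group cells and the other monocytes of the same libraries, by edgeR's interaction test with the library as a block. Each value is the log2 HLU effect in Gpnmb-group cells minus that in the other monocytes. Higher were Ccl22, a chemokine of dendritic cells and macrophages (9.16, adjusted p = 0.00662), Mt3, a metallothionein (8.10), Ctsk (6.20), the cartilage transcripts Cytl1 (5.47), 1500015O10Rik (4.92) and Chad (3.86), Ckb, a creatine kinase of osteoclasts (4.27), and Mpo, the peroxidase of neutrophil precursors (4.04). Lower were U90926 (-6.39), the chemokine gene Cxcl12 (-5.66), the immunoglobulin genes Ighm (-4.51) and Igkc (-3.42) and Csf3 (-2.20, adjusted p = 0.0378). In DESeq2, 6 of the 13 did not pass, namely Mt3 (6.47), 1500015O10Rik (4.63), Ckb (3.97), U90926 (-5.84), Cxcl12 (-6.31) and Csf3 (-2.53). Calls were also lost with 1 library left out. Without HLU replicate 1 this was Mt3 (0.18), and without HLU replicate 2 it was 1500015O10Rik (2.74), Cytl1 (3.18), Chad (3.97), Mpo (2.58) and U90926 (-3.80). Without Ctrl replicate 1 it was Cxcl12 (-3.43), and without Ctrl replicate 2 it was Mt3 (12.01), Mpo (4.50), U90926 (-4.30) and Igkc (-2.61). Ccl22 was at 0 in the Gpnmb-group cells of both Ctrl libraries, so its fitted value is no bound.

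With the highest cell of each gene, library and class removed, Ccl22 (6.37), Mpo (3.9), Ckb (3.09), Chad (1.90), U90926 (-4.78), Cxcl12 (-2.78) and Csf3 (-1.48) no longer passed. With putative doublets removed, 7 of the 13 did not pass, namely Ctsk (5.80, adjusted p = 0.164), Cytl1 (3.10), Chad (3.22), Cxcl12 (-5.14), Csf3 (-2.54), Ighm (-0.79, adjusted p = 0.997) and Igkc (0.65). Cxcl12 had 141, 9.29, 0 and 7.37 CPM in Gpnmb-group cells, with Ctrl replicate 1 far above the rest. U90926, a transcript of activated myeloid cells, had 9.08, 20.6, 0.896 and 372 CPM in Gpnmb-group cells against 0.625, 0, 0.203 and 563 in the other monocytes, and HLU replicate 2 stood apart in both.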

How the results depend on the processing

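The share of Gpnmb-group cells depended on the denominator. Over all cells with at least 4 UMIs of Csf1r, Ms4a6c and Ctss, the HLU minus Ctrl difference was -2.48 percentage points, against 1.77 over all cells. Leaving out 1 library moved it between 0.129 and 3.42.

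Against other monocytes, 969 genes passed. The count was 1585 with no filter on low counts, 50 without the library block, 487 without cells that held dendritic, B or T cell transcripts (837 of the 845 calls tested kept their sign), and 470 to 921 with 1 library left out, lowest without Ctrl replicate 2. With each gene's highest cell removed 982 passed, 881 of them the same calls. Against inflammatory monocytes, 332 became 890 with no filter and 65 to 1106 with 1 library left out. For HLU against Ctrl, 0 became 52 with DESeq2, 268 with no filter, 12 without cells rich in mesenchymal UMIs, 3 without cells rich in S100a8 and S100a9, and 0 to 1130 with 1 library left out. For the interaction, 24 became 12 with DESeq2, 100 with no filter, 13 without the highest cells and 30 to 104 with 1 library left out. The cause of these shifts was not tested. Where 1 library was left out, a lone library was assumed to vary like the others.

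With the replicate block 0 genes passed for HLU against Ctrl, as in the main fit, so that count could not fall. Deviations of the first replicates from their group means had a correlation of r = -0.0435 over 7463 genes. With 2 libraries a group this is a single value. It cannot say whether libraries of the same number were handled together.

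Among genes that did not pass, Il1b (-0.08) ranged from -0.44 to 0.11 with 1 library left out and was 0.37 without the library block, and Tfe3 from 0.11 to -0.15 without cells that held dendritic, B or T cell transcripts. In that setting the called falls of Bcl2a1d (-0.82) and Bcl2a1b (-0.74) became 0.24 and 0.21. The interaction for Igkc turned from -3.42 to 0.65 with putative doublets removed. A test against C1q macrophages was not run, because too few of those cells were found. Alternatives chosen after seeing the data were those that removed cells with transcripts of other types, osteoclast transcripts or high S100a8 and S100a9, those that removed single highest cells, the unthinned shares of cells with at least 3000 UMIs, and the share of cells with under 10 UMIs of Col1a1, Col1a2 and Acan. There were 2 mice a group, 1 of which supplied most cells. How often HLU effects smaller than the simulated log2 fold of 2 would be found was not tested. Nor was recovery tested with the spread between the real libraries.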
